A study of Mus musculus with 8 samples.

Results

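The cytoplasmic ribosomal protein genes were compared between the limbus and the cornea of the mouse. They were taken by symbol, as every gene named Rpl or Rps with a number and at most 1 letter and 1 further digit, together with Rplp0, Rplp1, Rplp2 and Rpsa, which gave 84 of the 23420 named genes in the table. Of these, 33 encode proteins of the small ribosomal subunit and 51 proteins of the large one. The 84 include 7 paralogs, that is related second genes, namely Rpl3l, Rpl7l1, Rpl10l, Rpl22l1, Rpl39l, Rps27l and Rps4y2, the last being an older symbol of Rps4l. The rule leaves out a few ribosomal proteins with other names (such as Fau, Gnb2l1 and Rpl36al), which are described beside them.

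The study set the limbal rim, where the epithelial stem cells of the cornea reside, against the central corneal button. Both groups came from wild type C57BL/6J mice that were 8 weeks old, with no treatment, and according to the methods the rims and the buttons from 16 eyeballs were pooled by tissue before total RNA was sequenced. The labels list 4 samples per tissue, numbered L001 to L004 as sequencing lanes are, but the deposited table holds values for 1 library per tissue. No spread between animals could therefore be measured, no test across replicates was made, and every interval below covers counting error only.

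Each ribosome carries a single copy of most of these proteins, wrapped around the ribosomal RNA. The small subunit binds the messenger RNA and decodes it, and the large subunit forms the peptide bond and holds the tunnel through which the new protein leaves. Their messenger RNAs are among the most abundant in most cells, and many start with a run of pyrimidines, the terminal oligopyrimidine tract, through which TOR signalling controls their translation as a group. In the corneal epithelium, cells are made in the basal layer and at the limbus and are lost at the surface, so that new cells have to be built throughout life.

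The reads of each library were recovered from the deposited means, which gave 26104317 reads on named genes in the cornea and 21182025 in the limbus. The table does not name the direction of its comparison, and it was read as cornea over limbus, the reading under which Krt12 had 1137735 corneal and 233324 limbal reads and Krt15 had 37738 and 353826. With this reading the 6 genes fixed as markers of the corneal epithelium summed to 2591568 corneal and 998954 limbal reads, and the 5 of the limbal epithelium to 50066 and 449485. These sums include Krt12 and Krt15, which set the reading, and among the corneal markers Clu went the other way, with 6544 and 11359. The limbal library also held more reads of most other tissues and cell types examined. It held 10488 reads of 7 skeletal muscle genes against 91 corneal ones, 6480 of 3 lens genes against 585, and 278096 of 4 conjunctival genes against 126508. Of these 4, Krt13 had 120736 against 35544 and Krt4 71498 against 2138, while Krt6a had 85861 against 88825 and Muc5ac 1 in each. Genes of leukocytes summed to 4539 limbal and 845 corneal reads, of blood vessels to 1530 and 179, of melanocytes to 1324 and 281, and of smooth muscle to 1312 and 48. The 4 keratocyte genes went both ways, Kera with 12119 corneal and 1423 limbal reads, Aldh1a1 with 7369 and 1548, Lum with 8471 and 7850, and Dcn with 30813 and 44833. The part of these cells and tissues in the values below was not tested, and in pooled tissue fewer cells of a type cannot be told apart from less RNA per cell.

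Of the reads on named genes, ribosomal protein genes took 5.98% in the cornea (exact 95% counting interval 5.97 to 5.99). In the limbus they took 7.03% (7.02 to 7.04). The share was higher in the limbus for the small subunit, with 2.52% against 2.99%, and for the large subunit, with 3.46% against 4.03%. These shares depend on what the other genes take up: Krt12 alone, the keratin of the corneal epithelium, held 4.36% of the corneal reads on named genes. Without the 10 genes with the most reads in each library the shares were 7.25% and 8.11%.

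Levels were set side by side per kb of transcript, in normalized reads, that is reads divided by the size factor of their library. The 73 members other than paralogs with over 1000 reads ran from 6048 to 78313 normalized reads per kb in the cornea, with a median of 25107, and from 6033 to 82602 in the limbus, with a median of 25901. The order of the levels was much the same in the 2 libraries, with a Spearman rho of 0.91 across these 73 genes, which share their transcript lengths and are not independent replicates. By the mean of both libraries the highest levels were those of Rps12, a small subunit protein, at 78313 corneal and 73992 limbal, of the stalk protein gene Rplp1, with 61992 and 82602, and of the large subunit gene Rpl32, with 56236 and 50464, although in the limbus Rps15 at 52252 and Rpl41 at 51652 stood above Rpl32. The lowest of the 73, Rps20, rests on a gene model of 3706 bases, the longest of the members, and at 22413 and 22360 normalized reads per gene it was not a weakly expressed gene.

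**Figure D1:**
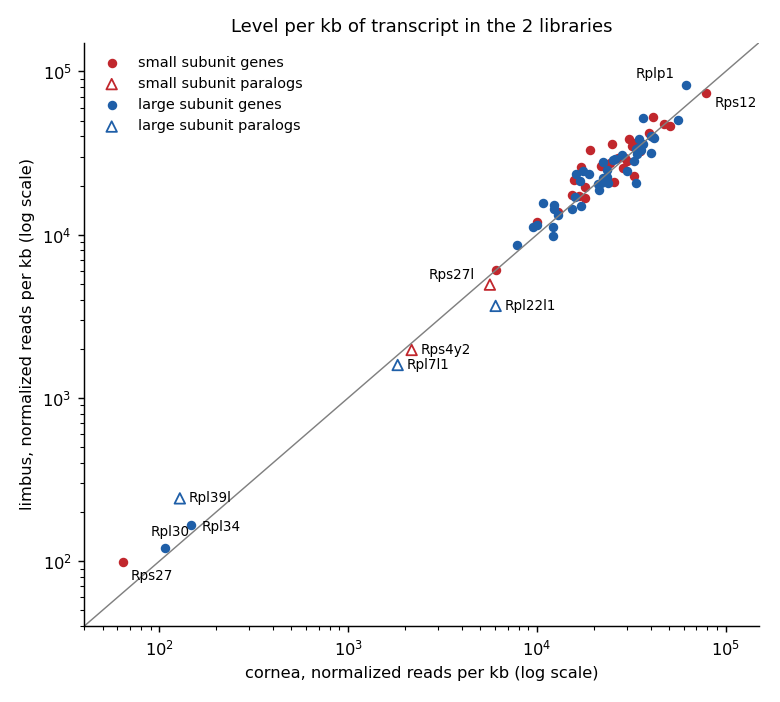
Normalized reads per kb of transcript in the cornea (horizontal, log scale) and the limbus (vertical, log scale) for the 81 ribosomal protein genes above 3 reads in each library, 1 point per gene, with triangles for paralogs and a grey line of equal levels. Most genes crowd along the line between 6048 and 82602, the paralogs Rps27l, Rpl22l1, Rps4y2 and Rpl7l1 lie below them, and Rpl34, Rpl30, Rps27 and Rpl39l lie apart near 100.

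The ratio of the 2 tissues was expressed as the log2 of normalized reads in the limbus over those in the cornea, for the 81 members whose reads exceeded 3 in each library. The median log2 ratio was 0.04, against -0.05 over the 13862 genes so compared and -0.20 over the 4300 genes with a mean normalized signal of at least 1000. The interquartile range was 0.32 for the members, 0.97 for all genes and 0.69 for the 4300 abundant genes, so the members lay close together. Their log2 ratios ran from -0.72 to 0.92, and 43 lay above 0 (46.6% of all genes, 34.9% of the abundant genes).

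A gene was counted as higher in a tissue when its exact 95% interval for counting error left out equality. This held for 38 of the 81 members in the limbus (33.2% of all genes compared, 28.5% of the abundant genes) and for 32 in the cornea (40.6% of all genes, 58% of the abundant genes), and 11 lay within counting error. At these read numbers such a count is met by small differences, and only 4 members were past 1.5-fold in the limbus (21.7% of all genes, 7.44% of the abundant genes) and 2 in the cornea (21.5% of all genes, 23.6% of the abundant genes). Of the 4 limbal ones, only Rps28 and Rps19 had a mean of at least 1000, while Rpl39l rested on 73 corneal and 129 limbal reads and Rps27, with 23 and 33, lay within counting error. In all, 7.41% of the members and 43.3% of all genes were past 1.5-fold in either direction, and for the abundant genes alone these shares were 5.19% and 31.1%.

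The zero point of these ratios rests on the scaling. Scaling to total reads on named genes, in place of the size factors behind the deposited means, raises every log2 ratio by 0.21. The median of all genes then moves from -0.05 to 0.15 and that of the members from 0.04 to 0.25. Of the 81 members, 30 change sign. The members' median lay 0.10 above that of all genes, a difference that a scaling cannot change since it moves both by the same amount, but 0.002 below it when genes of any read number were compared. The 77 members with a mean of at least 1000 had a median of 0.02, which lies 0.22 above that of the abundant genes. Those that change sign are the members with a log2 ratio between -0.21 and 0.

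**Figure D2:**
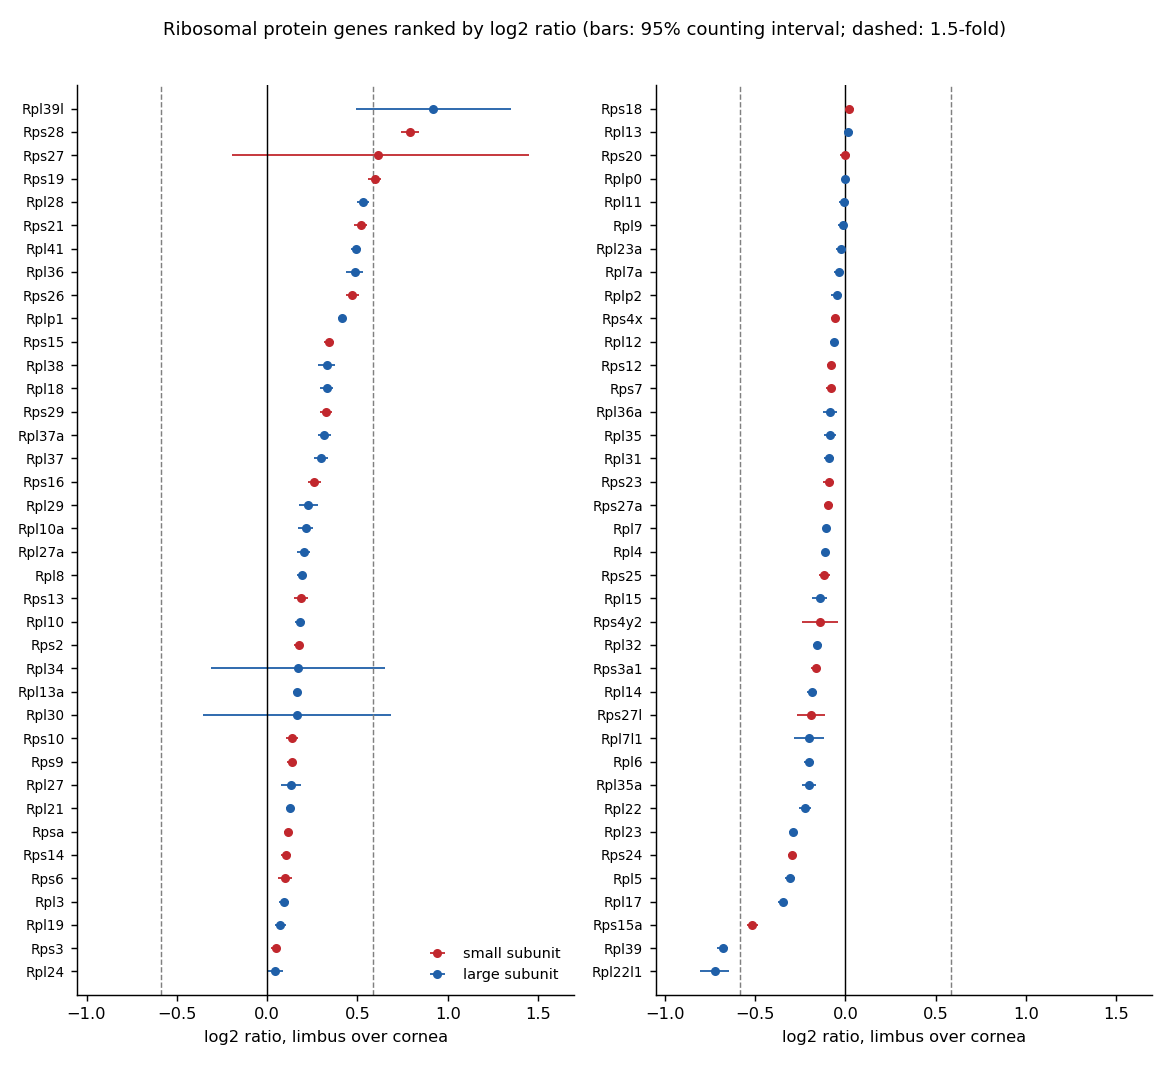
Log2 ratio of normalized reads, limbus over cornea, for 76 of the ribosomal protein genes in order, with the limbal end at the top left. Points are single genes, bars are exact 95% intervals for counting error, the solid line is equality and dashed lines are 1.5-fold. From Rpl39l at 0.92 to Rpl22l1 at -0.72 the order is gradual, with small and large subunit genes mixed, and the widest bars belong to Rps27, Rpl30, Rpl34 and Rpl39l. Scaling to total reads would move all points to the right by 0.21 and 28 of them across the solid line.

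Among the 33 small subunit genes the median log2 ratio was 0.10, with 17 higher in the limbus (33.2% of all genes, 28.5% of the abundant genes), 12 higher in the cornea (40.6% and 58%) and 4 within counting error. Rps28, a small protein near the exit path of the messenger RNA, had 5163 corneal and 8930 limbal normalized reads. It was 1.73-fold higher in the limbus, a log2 ratio of 0.79 (counting interval 0.74 to 0.84), the highest of the members with over 1000 reads. Kank3, a protein-coding gene, overlaps Rps28.

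Rps19, which is needed to mature the small subunit and is mutated in Diamond-Blackfan anaemia, followed with 10848 and 16395 normalized reads, 1.51-fold higher in the limbus (log2 0.60, 0.56 to 0.63). Rps21 had 9892 and 14172 (log2 0.52), Rps26, which contacts the messenger RNA upstream of the decoding site, 10671 and 14791 (log2 0.47), and Rps15 20613 and 26126 (log2 0.34). All 3 exceeded counting error on the limbal side but fell short of 1.5-fold. With the median of the genes nearest in GC content subtracted, Rps21 came to 0.54, Rps26 to 0.32 and Rps15 to 0.10.

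At the corneal end stood Rps15a, with 21033 corneal and 14722 limbal normalized reads, 1.43-fold higher in the cornea (log2 -0.51, -0.55 to -0.48). Rps24, another gene mutated in Diamond-Blackfan anaemia and one of the 5 members with the most reads, had 41468 and 33772 (log2 -0.30, -0.32 to -0.28). Both kept their direction when reads were scaled to library totals, but after subtraction of the median of the genes nearest in GC content Rps15a came to -0.06 and Rps24 turned to 0.14.

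The small subunit proteins best known outside the ribosome stood near equality with the size factors behind the deposited means. Rps6, the substrate of S6 kinase, had 11332 corneal and 12129 limbal normalized reads (log2 0.10). Rps3, which lines the entry of the messenger RNA channel and also takes part in DNA repair, had 31785 and 32830 (log2 0.05). Rpsa, also known as the laminin receptor, had 28903 and 31335 (log2 0.12). Rps27a, which is made as a fusion with ubiquitin, had 22269 and 20864 (log2 -0.09, or 0.11 when scaled to total reads). None of the 4 differed by as much as 1.1-fold on this scale, but scaled to total reads Rps6, Rps3 and Rpsa came to 0.30, 0.25 and 0.32. Subtraction of the median of the genes nearest in GC content turned Rps27a to 0.36 and Rpsa to -0.08. By this measure Rps6 came to 0.30 and Rps3 to 0.07.

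The remaining small subunit genes with ample reads were spread more evenly than these ends. On the limbal side they ran from Rps14 at a log2 ratio of 0.10 through Rps9, Rps10, Rps2, Rps13 and Rps16 up to Rps29 at 0.33. On the corneal side they ran from Rps3a1 at -0.17, which lies beside the messenger RNA exit, through Rps25, Rps23, a protein of the decoding centre, and Rps7 to Rps12 at -0.08, and all of these change sign when scaled to total reads. Rps20 and Rps18 stayed within counting error, at 0.00 and 0.02, and the sign of Rps20 changes with the scaling too.

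Among the 48 large subunit genes compared, the median log2 ratio was 0.01, and 21 were higher in the limbus (33.2% of all genes, 28.5% of the abundant genes), 20 in the cornea (40.6% and 58%) and 7 within counting error. Rpl28 had 12507 corneal and 18055 limbal normalized reads, 1.44-fold higher in the limbus (log2 0.53, 0.50 to 0.56). Rpl41 (log2 0.49) and Rpl36 (log2 0.48) stood close to it. With the median of the genes nearest in GC content subtracted, Rpl28 came to 0.36, Rpl41 to 0.51 and Rpl36 to 0.16. Ube2s, a protein-coding gene, overlaps Rpl28. Rpl41 encodes the shortest ribosomal protein, with a coding sequence of 75 bases, and had 16038 and 22572 normalized reads.

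Rpl39, a small protein of the exit tunnel, was the member with the lowest ratio among genes that are not paralogs. It had 20411 corneal and 12742 limbal normalized reads, 1.60-fold higher in the cornea (log2 -0.68, -0.71 to -0.65). Rpl17, also beside the tunnel exit, had 30996 and 24373 (log2 -0.35), and was 1.27-fold higher in the cornea. Rpl4, whose loop reaches into the same tunnel, had 51974 and 48128 (log2 -0.11, or 0.09 when scaled to total reads), so the 3 proteins of the tunnel did not share 1 ratio. After subtraction of the median of the genes nearest in GC content, Rpl39 came to -0.15, Rpl17 to 0.00 and Rpl4 to 0.11.

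Rpl5 and Rpl11 bind the 5S ribosomal RNA together and, when free of the ribosome, bind Mdm2. Rpl5 had 24993 corneal and 20191 limbal normalized reads (log2 -0.31, -0.33 to -0.28). Rpl11 had 18632 and 18528 (log2 -0.01, -0.04 to 0.02), within counting error, and its sign changes when scaled to total reads. The intervals of these partners do not meet, but after subtraction of the median of the genes nearest in GC content Rpl5 came to 0.13 and Rpl11 to 0.00, so that their order turned.

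Rpl38, known for its part in the translation of Hox messenger RNAs, had 6477 corneal and 8150 limbal normalized reads (log2 0.33, 0.28 to 0.38). Rpl13a, which also acts in the translational silencing of inflammatory messenger RNAs, had 36179 and 40602 (log2 0.17), and Rpl7 41521 and 38560 (log2 -0.11, or 0.10 when scaled to total reads). Rpl38 thus stood 1.26-fold higher in the limbus, while the other 2, among the 5 members with the most reads, differed by less.

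Of the remaining large subunit genes with ample reads, 11 were higher in the limbus, from Rpl24 at a log2 ratio of 0.04 and Rpl19, Rpl21, Rpl27, Rpl8, Rpl27a, Rpl10a, Rpl29, Rpl37 and Rpl37a up to Rpl18 at 0.33. Another 11 were higher in the cornea, from Rpl23 at -0.29 through Rpl35a, Rpl6, Rpl14, Rpl32, Rpl15, Rpl31, Rpl35, Rpl36a and Rpl12 to Rpl7a at -0.04. Of these 11, Rpl23 alone kept its sign when scaled to total reads. Rpl23a, which lies at the tunnel exit and takes part in binding the signal recognition particle, Rpl9 and Rpl13 stayed within counting error, from -0.03 to 0.02, and the signs of Rpl23a and Rpl9 change with the scaling.

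The stalk, built from Rplp0, Rplp1 and Rplp2, recruits the elongation factors to the ribosome, and its 3 genes did not move alike. Rplp0, the member with the most reads, had 54916 corneal and 54761 limbal normalized reads (log2 0.00, -0.02 to 0.01, or 0.20 when scaled to total reads). Rplp2 had 17326 and 16766 (log2 -0.05, or 0.16 when scaled to total reads). Rplp1 had 30934 and 41219, 1.33-fold higher in the limbus (log2 0.41, 0.39 to 0.44).

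The paralogs were weaker than their parent genes except where the parent itself was barely counted. Per kb, Rpl22l1 stood at 18.4% of Rpl22 in the cornea and 13.0% in the limbus, Rps4y2 at 6.35% and 5.99% of Rps4x, and Rpl7l1 at 5.13% and 4.80% of Rpl7. Rpl22l1 had the lowest ratio of all members, with 3337 corneal and 2021 limbal normalized reads, 1.65-fold higher in the cornea (log2 -0.72, -0.80 to -0.64). Its parent Rpl22 had 15562 and 13320 (log2 -0.22, -0.26 to -0.19), so parent and paralog lay on the same side. After subtraction of the median of the genes nearest in GC content, both turned to the limbal side, Rpl22l1 at 0.22 and Rpl22 at 0.11. Rpl7l1 had 2397 and 2084 (log2 -0.20) and Rps4y2 1712 and 1552 (log2 -0.14), and both change sign when scaled to total reads, as does Rps4x with 33340 and 31985 (log2 -0.06).

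Rpl39 and Rpl39l stood at opposite ends of the order. Rpl39l, known from the testis, had only 73 corneal and 129 limbal reads, or 0.38% and 1.16% of the level of Rpl39 per kb, and was 1.89-fold higher in the limbus (log2 0.92, 0.49 to 1.35). Of 4 germ cell genes, Ddx4 had 1 read in each library and Dazl, Prm1 and Tnp1 had 0. The coding sequences of the pair are of equal length, 153 bases without the stop codon, and differ at 23 bases, an identity of 85.0%. Of the 23 differences, 16 lie at the last position of a codon. They are shown because a read within the coding sequence tells the 2 genes apart only where it covers a difference, in capitals here.
Rpl39: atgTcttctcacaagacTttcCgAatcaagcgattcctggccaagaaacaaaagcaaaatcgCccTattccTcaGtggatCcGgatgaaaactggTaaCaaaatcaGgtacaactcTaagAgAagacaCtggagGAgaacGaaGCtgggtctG
Rpl39l: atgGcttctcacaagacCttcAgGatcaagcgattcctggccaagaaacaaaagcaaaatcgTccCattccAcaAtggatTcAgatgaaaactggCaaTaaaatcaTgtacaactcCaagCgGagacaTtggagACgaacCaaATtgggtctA
Rpl39 lies on the reverse strand of chromosome X (chrX:37082520-37085402, GRCm38) and Rpl39l on the forward strand of chromosome 16 (chr16:10170226-10174911).

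Rpl3l and Rpl10l were the other paralogs known from single tissues. Rpl3l, the form of Rpl3 in striated muscle, had 1 corneal and 50 limbal reads, a ratio of 53.4 with a counting interval from 9.16 to 2152. The 7 skeletal muscle genes had 91 corneal and 10488 limbal reads, and their part in the reads of Rpl3l was not tested. Its parent Rpl3 had 21592 and 23049 normalized reads (log2 0.09). Rpl10l, another gene known from the testis, had 0 reads in both libraries, where its parent Rpl10 had 20613 and 23371 (log2 0.18).

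Of the members that are not paralogs, 4 were counted far below the others. Rps27 had 23 corneal and 33 limbal reads, Rpl30 had 63 and 66, Rpl34 had 73 and 77, and Rpl26 had 0 in both, a count that allows up to 3 reads. The other 73 had at least 4997 corneal and 5123 limbal reads. Their ratios carry wide intervals, as for Rps27, whose log2 ratio of 0.62 runs from -0.20 to 1.45.

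Many ribosomal protein genes have near-identical copies elsewhere in the genome, mostly processed pseudogenes. A search of the coding sequences against the annotated transcripts found 558 copies of at least 95% identity over at least 90% of the length, of which 538 are annotated as processed pseudogenes. Of the 83 members searched, 76 had a copy, with a median of 5 and a maximum of 55 for Rpl21. Rps27 had 4 copies, Rpl34 5, Rpl26 6 and Rpl30 12, while Rpl7a had 30 and Rpl29 27 with 19820 and 5732 reads in the cornea. Across the 80 members with a count and a ratio, the number of copies and the log2 ratio had a Spearman rho of -0.14. How reads that match several places were counted is not given in the sources used here, so the members with copies carry that limit. A protein-coding gene overlaps 19 of the 84 members, and 30 hold genes of small nucleolar RNAs within their span, 59 in all. The library kit keeps the strand, and whether counting used it is not given in the sources used here either.

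Rps27l, the paralog of Rps27, had 2812 corneal and 2467 limbal normalized reads (log2 -0.19, or 0.02 when scaled to total reads), and so exceeded its parent, unlike the other paralogs. The coding sequences of both are 252 bases long and differ at 60 bases, 53 of them at the last position of a codon, an identity of 76.2%. They are shown, with the differing bases in capitals, because the barely counted gene and its more highly counted paralog are distinct at many bases.
Rps27: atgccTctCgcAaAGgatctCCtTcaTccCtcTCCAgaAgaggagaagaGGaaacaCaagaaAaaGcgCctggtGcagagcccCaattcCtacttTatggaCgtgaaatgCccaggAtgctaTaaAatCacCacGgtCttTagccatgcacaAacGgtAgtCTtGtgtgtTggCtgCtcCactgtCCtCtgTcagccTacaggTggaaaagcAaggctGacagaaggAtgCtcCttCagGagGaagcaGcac
Rps27l: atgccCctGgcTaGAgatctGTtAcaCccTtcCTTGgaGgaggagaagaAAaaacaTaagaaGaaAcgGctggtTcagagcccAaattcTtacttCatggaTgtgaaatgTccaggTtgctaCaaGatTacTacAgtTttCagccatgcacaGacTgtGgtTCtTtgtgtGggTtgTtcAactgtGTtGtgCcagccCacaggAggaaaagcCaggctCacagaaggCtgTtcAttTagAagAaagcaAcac
Rps27 lies on the reverse strand of chromosome 3 (chr3:90212522-90213651, GRCm38) and Rps27l on the forward strand of chromosome 9 (chr9:66946086-66949516).

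The log2 ratios of the members followed the GC content of the coding sequence. Across the 80 members with a coding sequence and a ratio, the Spearman rho was 0.60, and 0.72 across the 76 with a mean of at least 1000. For the GC content of the whole transcript, rho was 0.51 over 81 members and 0.58 over 77. The same relation ran through all genes, with a rho of 0.46 over 13240 genes and 0.52 over 4266 abundant genes for the coding sequence, and of 0.49 and 0.61 for the transcript. Genes of 1 library share its preparation, and these values describe the pair of libraries with no test. The 27 members with the lowest GC content, from 39.9% to 50.4%, had a median log2 ratio of -0.11, the next 27 of 0.09 and the 26 with the highest, from 54.6% to 61.6%, of 0.18. All genes in the same ranges of GC content had medians of -0.46, -0.04 and 0.22, and the abundant genes of -0.51, -0.14 and 0.08, so that in the highest range the members lay below all genes and above the abundant ones.

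The ends of this range are shown by the coding sequences of the compared members with the highest and the lowest GC content, of which the first 300 bases follow with G and C in capitals.
Rpl36: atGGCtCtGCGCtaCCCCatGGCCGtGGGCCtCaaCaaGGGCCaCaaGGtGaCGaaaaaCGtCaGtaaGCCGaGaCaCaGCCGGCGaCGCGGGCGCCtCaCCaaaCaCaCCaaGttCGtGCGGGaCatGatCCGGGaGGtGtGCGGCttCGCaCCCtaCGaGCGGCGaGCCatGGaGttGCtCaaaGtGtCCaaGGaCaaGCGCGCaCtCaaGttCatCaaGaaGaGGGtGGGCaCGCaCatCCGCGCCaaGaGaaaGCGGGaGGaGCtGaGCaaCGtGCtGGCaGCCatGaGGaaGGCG
Rpl22l1: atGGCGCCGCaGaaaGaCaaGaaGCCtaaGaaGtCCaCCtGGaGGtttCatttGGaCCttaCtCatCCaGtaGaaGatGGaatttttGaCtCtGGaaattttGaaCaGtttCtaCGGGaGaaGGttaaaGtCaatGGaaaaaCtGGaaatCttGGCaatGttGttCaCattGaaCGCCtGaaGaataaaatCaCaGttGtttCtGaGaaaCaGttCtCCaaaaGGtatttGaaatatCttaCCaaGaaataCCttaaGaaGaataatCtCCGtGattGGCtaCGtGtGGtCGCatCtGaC
Rpl36 (chr17:56613416-56614243, forward strand, GRCm38) holds 194 G or C in 315 bases, 61.6%, and had 6701 corneal and 9377 limbal normalized reads (log2 0.48, 0.44 to 0.53). Rpl22l1 (chr3:28805436-28807424, forward strand) holds 146 in 366 bases, 39.9%, and had the lowest ratio of the members, -0.72.

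When the median log2 ratio of the 500 genes nearest in GC content was subtracted from each gene, the median of the members was 0.12, that of all genes -0.002 and that of the abundant genes -0.09. Of 80 members, 57 then lay above 0 and 23 below. Rpl22l1 came to 0.22, Rpl39 to -0.15, Rps15a to -0.06 and Rpl17 to 0.00, so that 0 members remained past 1.5-fold on the corneal side. On the limbal side 3 were past it, Rpl39l at 1.64, Rps27 at 0.80 and Rpl30 at 0.72, all among the least counted members, while Rps28 came to 0.58 and Rps19 to 0.41. The difference between the small and the large subunit medians, 0.09 without this step, was 0.02 with it. Coding length and mean level were less closely related to the ratio, with a rho of -0.24 and -0.29 over the members.

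**Figure D3:**
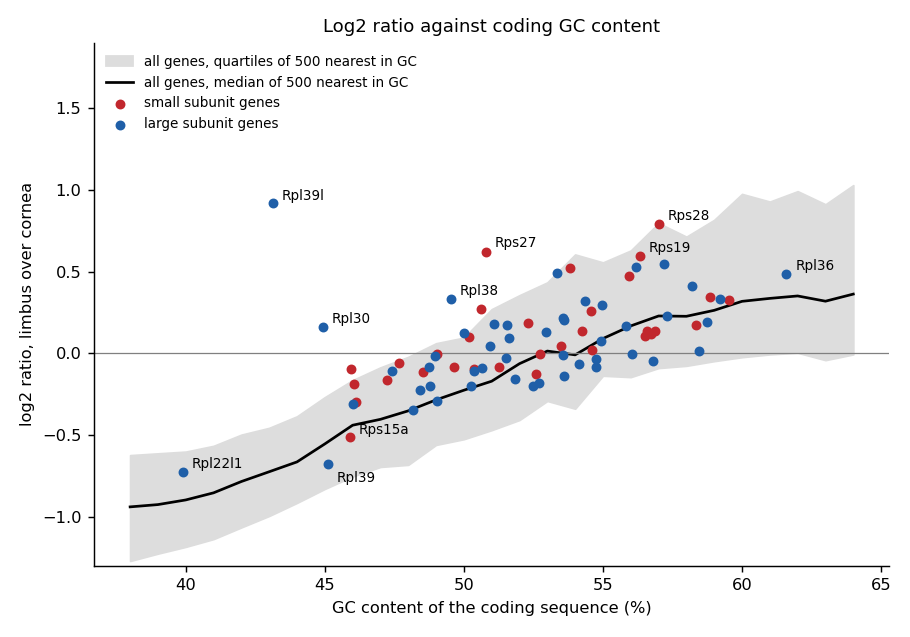
Log2 ratio, limbus over cornea, against the GC content of the coding sequence in percent, for 80 ribosomal protein genes (points, small subunit red and large subunit blue), with the median (line) and quartiles (grey band) of the 500 genes of the whole table nearest in GC content. The points climb from Rpl22l1 at 39.9% and -0.72 to Rpl36 at 61.6% and 0.48, along the line for all genes, with Rpl39l, Rps27, Rpl30 and Rpl38 among the points above the band. Scaling to total reads would move points, line and band up by 0.21.

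The start of these genes was examined for pyrimidine runs near it, since terminal oligopyrimidine messenger RNAs begin with such a run. The RefSeq table of start sites (GRCm38.p6) held 63 of the 84 symbols. A run of at least 8 bases that are each C or T, on the transcribed strand and touching the 20 bases on either side of a listed start, was found for 33 of the 63, or 52.4%. The share was 23.7% over all 27025 genes of the table and 25.7% over the 3282 with a mean of at least 1000. Runs of A or G of the same length, which are the C or T runs of the other strand, were found for 9.5% of the members and 26.1% of all genes. The windows below reach from 15 bases before the start to 15 from it on, and the runs are in capitals.
Rps6: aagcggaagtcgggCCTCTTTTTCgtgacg
Rps10: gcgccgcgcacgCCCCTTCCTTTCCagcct
Rps18: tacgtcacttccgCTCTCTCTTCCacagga
Rps15a: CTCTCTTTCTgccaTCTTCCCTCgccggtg
Rps27: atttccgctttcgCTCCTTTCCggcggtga
Rpl15: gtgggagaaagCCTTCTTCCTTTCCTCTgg
Rpl35: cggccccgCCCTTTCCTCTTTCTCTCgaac
Rpl38: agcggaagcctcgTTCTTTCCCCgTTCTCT
Rplp2: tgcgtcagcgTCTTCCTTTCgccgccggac
Rps28: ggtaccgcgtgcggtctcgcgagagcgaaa
Rps3: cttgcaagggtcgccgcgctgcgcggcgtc
Rpl41: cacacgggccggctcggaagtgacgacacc
The first 9 windows hold all or part of a run and the last 3 hold none. No run says only that these letters are absent from the window around the listed start. A run counted here may lie before the start, as the first run of Rps15a does, and does not by itself show a terminal oligopyrimidine tract. Among the members with a ratio, the 33 with a run had a median log2 ratio of -0.01 and the 27 without a run of 0.05, and the ranges of both overlapped, from -0.72 to 0.92 and from -0.29 to 0.79. In the windows, Rps15a with a run stood at -0.51 and Rpl38 with a run at 0.33, and Rps28 without one at 0.79 and Rps3 without one at 0.05.

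Among the ribosomal protein genes that the symbol rule leaves out, Fau, whose product is cleaved into a ubiquitin-like part and Rps30, had 9929 corneal and 11803 limbal reads (log2 0.35). Gnb2l1, the scaffold protein Rack1 on the small subunit, had 34502 and 30178 (log2 -0.10), and Rpl36al had 2611 and 2339 (log2 -0.06). Gnb2l1 and Rpl36al change sign when scaled to total reads.

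The other genes of translation had lower medians than the ribosomal protein genes. Of 39 initiation factors compared, 7 were higher on the limbal and 25 on the corneal side beyond counting error, with a median log2 ratio of -0.26, where of all genes compared 33.2% were limbal and 40.6% corneal, and of the abundant genes 28.5% and 58%. Of 12 elongation and release factors, 2 were limbal and 9 corneal by this measure, with a median of -0.30. Eef1a1, which brings the aminoacyl-tRNA to the ribosome, had 154148 corneal and 113443 limbal reads (log2 -0.35), and Eef2, which moves the ribosome along, 56110 and 49806 (log2 -0.08, or above 0 when scaled to total reads). Of 17 other genes known for an oligopyrimidine start, 8 of which are among the factors just counted, 4 were limbal and 9 corneal, with a median of -0.08, which turns to 0.13 when scaled to total reads. Tpt1 was among the lowest of these at -0.72 and Vim, a mesenchymal filament gene, the highest at 2.16.

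The genes that build ribosomes had medians below that of all genes (-0.05), though not all below that of the abundant genes (-0.20). Of 34 genes of small subunit assembly, 3 were limbal (8.8%) and 23 corneal (67.6%), with a median of -0.25, and Riok2, a kinase of late assembly, was the lowest with 1720 corneal and 632 limbal reads (log2 -1.35). Of 38 genes of large subunit assembly, 9 were limbal (23.7%) and 21 corneal (55.3%), with a median of -0.17. Beside these counts, 33.2% of all genes were limbal and 40.6% corneal, and 28.5% and 58% of the abundant genes. Of 23 genes of RNA polymerase I and the nucleolus, 5 and 12 were so counted, with a median of -0.21, and of the 12 chaperones and importins of ribosomal proteins compared, 3 and 9 were, with a median of -0.29. The list for TOR signalling and Myc was drawn widely. It also held Rps6ka1, Rps6ka2, Rps6ka3, Max, Mxd1 and Mxi1, which are not core genes of the TOR pathway. Of its 23 genes compared, 6 were limbal (26.1%) and 16 corneal (69.6%), with a median of -0.18. They ran from Larp4, with 1289 corneal and 510 limbal reads (log2 -1.24), and Rps6ka2, with 529 and 221 (log2 -1.16), to Myc, which drives transcription of ribosome genes, with 549 and 763 (log2 0.57).

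The median GC content of the members was 52.6%, and that of all these lists but TOR signalling was lower. It was 48.5% for small subunit assembly, 50.2% for large subunit assembly, 49.3% for initiation factors and 49.0% for elongation and release factors. After subtraction of the median of the genes nearest in GC content, the medians were -0.02, 0.04, -0.05 and -0.05, against 0.12 for the members. The other lists had a median GC content of 51.4% for the nucleolus, 50.6% for chaperones and importins, 49.8% for the oligopyrimidine genes and 54.9% for TOR signalling, and medians of 0.04, -0.18, -0.12 and -0.21 after the subtraction. Scaled to total reads without this step, the medians of large subunit assembly and of TOR signalling turn to 0.03 each, and those of the initiation and elongation factors stay below 0 at -0.05 and -0.09.

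**Figure D4:**
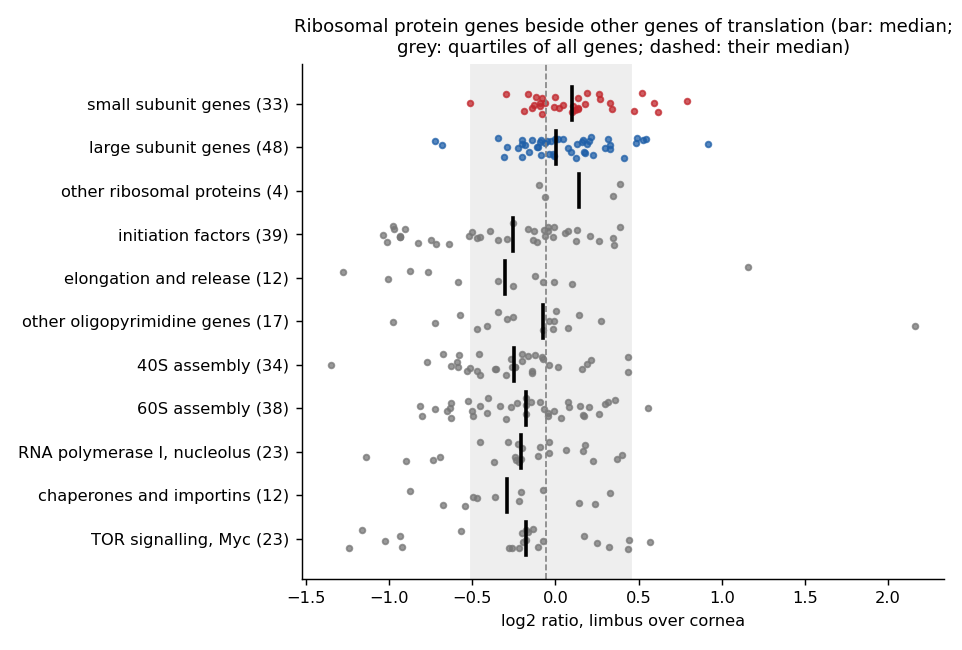
Log2 ratio, limbus over cornea, of each gene whose reads exceeded 3 in each library, by group, with the number of genes in brackets, a black bar at the median of each group, a grey band for the quartiles of all 13862 genes and a dashed line at their median of -0.05. The medians of the small subunit (0.10), the large subunit (0.01) and the other ribosomal proteins (0.14) lie above the dashed line, and those of the 8 other groups, from -0.08 to -0.30, below it. Scaling to total reads would move everything to the right by 0.21, which takes the medians of the other oligopyrimidine genes, 60S assembly and TOR signalling above 0.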

How the data were processed

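Ribosomal protein genes were compared between 2 tissues from 1 deposited table. According to the methods, total RNA libraries from 100 ng of RNA were sequenced, adaptors were trimmed, reads were mapped to GRCm38 (mm10) and normalization used trimmed means of M-values. The mean signal per gene, as the authors deposited it, averages the size-factor-scaled reads of the libraries. The authors further deposited shrunken log2 fold changes, their standard errors and p-values. The p-values were not used, and the fold changes served only to recover reads. The table names genes in 23420 of 40904 rows, and 17484 rows without a name stayed out of totals and tests. Its accession column was not used, since 2 of 18554 accessions belonged to the gene of their row.

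Each mean fixes 1 or several pairs of whole read numbers, 109 corneal reads being worth 102 limbal ones. The pair that fitted the deposited fold change and standard error was found for all 17442 genes above 0. Several pairs were possible for 11299 of these, where the chosen pair lay within 1.93 corneal reads of the value given by the fold change and its standard error, and the next at least 107 away. Size factors were 1.034 and 0.967.

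Genes above 3 reads in each library were compared by their ratio (that of Rpl3l, with 1 corneal read, is given apart), with exact Clopper-Pearson 95% intervals for counting error. Gene models were GENCODE M21 (GRCm38), which placed all 84 members. Near-identical copies were found with blastn 2.17.0, and start sites came from RefSeq (GRCm38.p6). Scripts ran in Python 3.11.15, numpy 2.4.6, scipy 1.17.1, pandas 2.3.3 and matplotlib 3.10.9.

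The members and lists were chosen with earlier results of these data known. Members named are the 5 highest and 5 lowest ratios, the 5 with most reads, the 3 highest and 3 lowest levels per kb, paralogs with parents, the stalk genes, a set of well-known proteins and members with at most 3 reads. From the other lists the 2 highest and 2 lowest ratios were to be named, of which only some are given. Rps21, Rps26, Rps15, Rps20, Rps10, Rps18, Rpl28, Rpl34, Rpl41, Rpl36, Rpl7a, Rpl15, Rpl21, Rpl29, Rpl35, Eef1a1, Eef2, Tpt1 and the remaining members were named after their values were seen. The design foresaw a count test for the case of values per sample, and with 1 library per tissue the intervals took its place. The values of a few genes are not reported here.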

Additional observations from a re-analysis of the deposited data

How the results depend on the processing

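Scaled to total reads, the median log2 ratio of the members was 0.25, 65 members were limbal and 7 corneal beyond counting error, and 11 and 0 were past 1.5-fold. Scaled to total reads outside these genes, the values were 0.27, 66, 7, 11 and 0. The cause was not tested beyond the common shift of every ratio by 0.21 and 0.22. Of 33 named members, 12 changed sign under total reads, to 0.20 for Rpl11 and for Rplp0, 0.0494 for Rpl32, 0.0948 for Rpl4, 0.10 for Rpl7, 0.00377 for Rpl7l1, 0.16 for Rplp2, 0.12 for Rps12, 0.11 for Rps27a, 0.0165 for Rps27l, 0.15 for Rps4x and 0.0636 for Rps4y2. The median of the members minus that of all genes was 0.13 with a mean of at least 50, -0.00236 with no filter and a pseudocount of 1, and 0.22 against genes with a mean of at least 1000, while a pseudocount alone, a mean of at least 10 and a trimmed mean of log ratios changed no direction of the values over all members. Without paralogs 1 member was past 1.5-fold in the cornea. After subtraction of the median of the 500 genes nearest in GC content 0 were, and the small subunit median minus the large one was 0.0204 in place of 0.09. Without the 10 genes with the most reads the members took 7.25% of corneal and 8.11% of limbal reads on named genes. The GC content and abundance alternatives were chosen after seeing the data. No paired analysis was possible because the table holds 1 library per tissue, and for the same reason no replicate could be left out. Rps27, Rpl30, Rpl34 and Rpl39l have few reads and wide intervals, and why Rps27, Rpl30 and Rpl34 had few reads was not tested.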

Other observations

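Of the 558 near-identical copies of ribosomal protein genes, 13 have a row of their own among the named genes, with 98 corneal and 118 limbal reads in all. The 17484 rows without a gene name were not searched for copies, so the reads of the other copies are not known. Of these 13, the one with the most reads in the cornea was Gm15421, 99.5% identical to Rpl22l1. It had 25 corneal and 27 limbal reads, while Rpl22l1 itself had 3450 and 1955. Gm5148, identical to Rps23 over the compared length, had 24 and 23 reads against 17362 and 15225 for Rps23. The copies of Rpl26, Rpl30 and Rpl34 that have a named row, Gm15772, Gm12191 and Rpl34-ps1, had 0 reads in both libraries, as Rpl26 itself did.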
